A study of Mus musculus with 145 samples.

Results

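Early-pluripotency 2 (EP2) is a cluster of cells that the authors annotated on a failed branch of the reprogramming of mouse spermatogonial stem cells (SSCs). Its members were taken from the authors' cell annotation as all cells whose cluster value was Early-pluripotency 2. They were 77 of 4339 annotated reprogramming cells, or 1.77%, and 8.24% of the 935 cells of the second batch (B2). SSCs of neonatal male pups of C57BL/6 females crossed with DBA males were plated on feeder cells and kept without passaging in a medium with EGF, bFGF, GDNF and LIF, and single cells were taken from picked SSC-like and pluripotent-like colonies over the following days and sequenced with a modified STRT protocol, which counts transcripts by unique molecular identifiers (UMIs). The labels give the strain as C57BL/6[female] X DBA[male] and no treatment, so every group shared the same cross and culture. The paper's methods name dams with an EGFP transgene, either under the Oct4 promoter or general, and its results describe the SSCs of this reprogramming as derived from Oct4-EGFP mice. The groups compared here were EP2, the SSC clusters SSC1 to SSC4 of B2 with 331 cells, Early-pluripotency 1 (EP1), the neighbouring cluster of the same branch, with 119 cells in both batches, and RPG3, a pluripotent cluster of the successful branch, with 130 cells in B2.

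SSCs are the unipotent stem cells of the testis. GDNF and FGF, acting through receptor tyrosine kinases and ERK signalling, hold them in the undifferentiated state by way of factors such as ETV5, BCL6B, ID4 and LHX1, whereas retinoic acid drives them into differentiation through STRA8, and SOHLH1 and other factors act in the same step. A small number of cultured SSCs can convert into pluripotent cells that switch on POU5F1, NANOG and SOX2 and switch off germ line genes such as Dazl and Ddx4.

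Nearly the whole cluster came from 1 library. The day 12 replicate 2 library held 76 of the 77 EP2 cells, which were 80.9% of its 94 annotated cells (exact 95% binomial interval 71.4 to 88.2%). The remaining cell was 1 of 95 in day 14 replicate 6, and the other 8 libraries of B2 had no EP2 cell. The library also held 8 RPG2, 7 RPG3, 2 EP1 and 1 SSC2 cell, and no other library of B2 was taken on day 12. The other day 12 libraries, replicates 1 and 3 of the first batch (B1), had 0 EP2 cells of 94 and 95, which allows shares of up to 3.19% and 3.16% (3 cells of the total, with exact 95% upper limits of 3.85% and 3.81%). The cluster and its library cannot be told apart, and neither can the day within B2. With 1 library there was no replicate and no test of EP2 against any other class. Values are given side by side, the intervals cover counting error only, and nothing says how the cells of a library were spread over colonies or pups. The clusters had been defined on these same transcriptomes, so the differences between them are a description.

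Levels are UMIs of a gene per 1000000 UMIs of a class in a library (CPM), over libraries with at least 5 cells of the class. EP2 held 21937730 UMIs with a median of 284111.5 per cell (31917 to 602547), 8428.5 genes per cell and 0.759% mitochondrial UMIs. SSC1 to SSC4 came from 7 libraries of B2, of which day 16 replicate 6 stood apart with 8 cells, a median of 11697.5 UMIs and 3460 genes per cell, against medians of 112247 to 306862 UMIs in the other 6. EP1 came from day 14 replicate 3 (13 cells) and day 18 replicate 4 (88 cells). Cells of every library were marked from 1 set of 96 barcodes.

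A gene was called higher or lower in EP2 when its level was at least 1.65-fold away from the mean of the other class, lay outside the range of that class's libraries, and reached 10 CPM in the higher class. Against SSC1 to SSC4, 1802 of 10143 genes (17.8%) were higher and 358 (3.53%) lower, and the median log2 ratio of all genes was 0.08. Of these calls 83.4% were higher, which became 71.7% with median-of-ratios scaling, 74.8% with TMM scaling and 71.8% in cells thinned to 100000 UMIs. Against EP1, 2261 of 10087 genes (22.4%) were higher and 998 (9.89%) lower, with a median log2 ratio of 0.07. Median-of-ratios scaling moved the all-gene median to -0.05 against SSC1 to SSC4 and to -0.03 against EP1, so every ratio below is to be read against a shift of that size. Without day 16 replicate 6, the genes lower than in SSC1 to SSC4 numbered 649 in place of 358 and the higher ones 2258 in place of 1802. Without day 18 replicate 4, the genes lower than in EP1 numbered 1540 in place of 998, when EP1 was 1 library. With EP1 libraries of at least 3 cells, they numbered 381, of which 262 were among the 998. The genes higher than in EP1 then numbered 2168, of which 1544 were among the 2261.

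Eomes, Sox2 and Dppa2 were used here as markers to check the cluster, and none of the 3 was called higher than in SSC1 to SSC4. The study itself describes its early pluripotency clusters by Esrrb and Dppa2 with low Oct4 (Pou5f1), whose values are given with the pluripotency genes. Eomes, a T-box factor of the primitive streak and trophoblast (chr9:118478212-118486132, GRCm38), was at 27 CPM in EP2 (exact Poisson interval 24.9 to 29.3), against a lowest, median and highest SSC library of 2.31, 7.92 and 28.5. EP2 was 2.45-fold above the SSC mean but inside its range, because day 18 replicate 4, with 6 SSCs, reached 28.5 and the next library 14.3. Eomes was at 28.6 and 37.8 in the EP1 libraries.

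Sox2, a core pluripotency factor (chr3:34650405-34652461), was at 58.7 in EP2, between the SSC libraries at 17.3 to 90.0 and between the EP1 libraries at 16.5 and 111. RPG3 cells of the other libraries had 234 to 289. Dppa2, a regulator of germ line and early embryo genes (chr16:48303908-48319723), was at 8.16 in EP2 (7.01 to 9.45), near the SSC median of 9.89 and below both EP1 libraries at 13.4 and 17.1. It was far below the RPG3 cells, at 202 to 234 in the other libraries and 186 in the library of EP2. Summed over the library, EP2 thus lay inside the SSC range for all 3 marker genes, and Dppa2 was called lower than in EP1.

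Within the cluster, these marker genes were uneven. In cells thinned to 100000 UMIs, Sox2 was detected in 83.6% of 73 EP2 cells, 85.3% of 116 EP1 cells and 53.5% of 288 SSCs of B2. Here and in the shares below, the EP1 cells are those of all libraries of both batches, the 2 in the library of EP2 included. The EP1 libraries of day 14 replicate 3 and day 18 replicate 4 differed, with Sox2 in 46.2% of 13 cells and 94.1% of 85, and Eomes in 53.8% and 65.9%. Eomes was detected in 27.4% of EP2 cells, 61.2% of EP1 cells and 24.7% of SSCs. Without thinning the EP2 shares were 97.4% and 60.5%. The median EP2 cell had 2.86 CPM of Eomes and the highest 544, and the median for Sox2 was 19.11 with a highest of 528, so a few cells carried much of both levels. Dppa2 was detected in 45.2% of EP2 cells, 46.6% of EP1 cells and 37.8% of SSCs.

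Germ line genes were at or near their SSC levels in EP2. Of 23 germ cell identity genes tested against SSC1 to SSC4, none was called higher and 2 were lower (17.8% and 3.53% of all genes), with a median log2 ratio of -0.23. Dazl, an RNA-binding protein needed in germ cells, was at 747 in EP2 against 712, 778 and 1136 in the lowest, median and highest SSC library, and Ddx4, the germ cell RNA helicase, at 369 against 338, 394 and 709. Both lay inside the SSC range, whereas RPG3 cells of the other libraries had Dazl at 85 to 88. Zbtb16, a transcriptional repressor of undifferentiated spermatogonia, was at 133, just above the highest SSC library at 132, and was called higher than in EP1, where it was at 63.4 and 89.4.

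The 2 germ cell identity genes that were lower were Pld6 and Dmrt1. Pld6, a mitochondrial protein of the piRNA pathway, was at 6.34 in EP2 against 23.9 to 47.9 in SSCs, and Dmrt1, a DM-domain factor of spermatogonia and Sertoli cells, at 145 (140 to 150) against 210 to 369 in SSCs and 256 and 316 in EP1. Dnd1, an RNA-binding protein needed for primordial germ cells, was at 90.3 against 136 to 268. For all 3 genes EP2 was below each SSC and EP1 library. In the library of EP2, Pld6 had no UMI in the 2 EP1 cells or the SSC2 cell, Dnd1 was at 48.8 and 89.3, and Dmrt1 was above EP2 at 195 and 464.

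**Figure D1:**
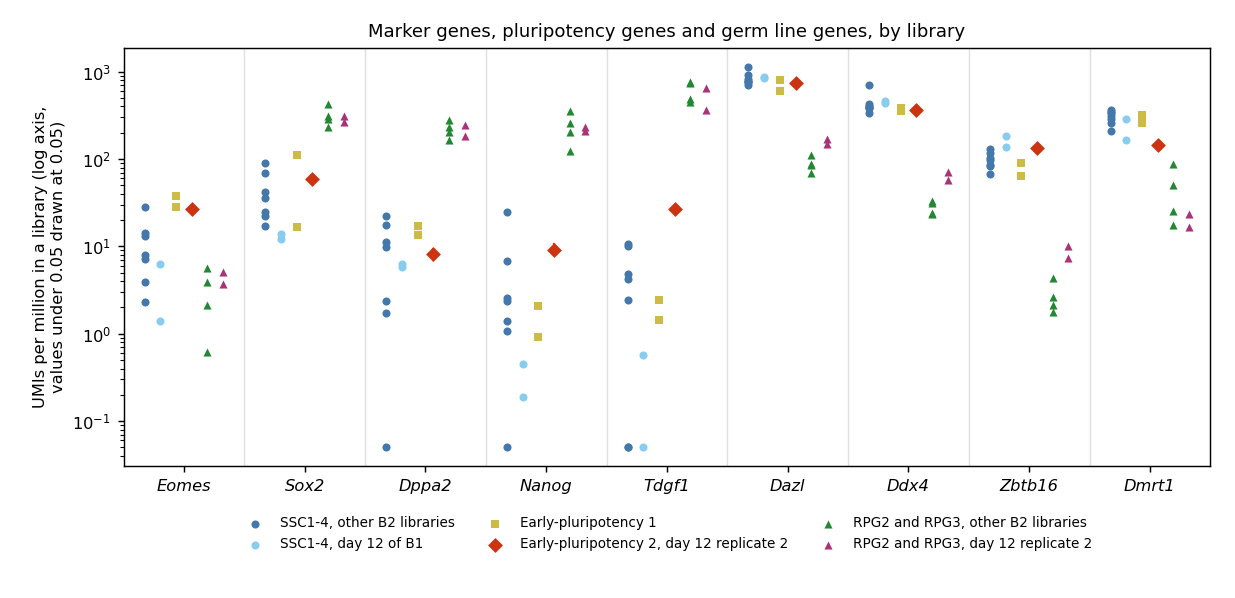
Levels of 9 genes, 1 point per library and class, in CPM on a log axis (values under 0.05 drawn at 0.05), with the exact Poisson interval as a bar on the EP2 point. EP2 sits with SSCs and EP1 for Dazl and Ddx4, above EP1 for Zbtb16, below both for Dmrt1, inside the SSC range for Eomes, Sox2, Dppa2 and Nanog, and below the RPG cells for Sox2, Dppa2, Nanog and Tdgf1.

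Most pluripotency genes were lower in EP2 than in reprogrammed cells. Nanog was at 9.16 in EP2, inside the SSC range of 0 to 24.8, and Pou5f1 at 4.15, inside 0 to 10.8. Esrrb, an orphan receptor of naive pluripotent cells, was at 12.6, inside the SSC range of 0 to 17.8 but above both EP1 libraries at 1.67 and 2.88. Of 18 core pluripotency genes, 12 reached the level for the comparison with SSC1 to SSC4, and 3 of them were called higher, Tdgf1, L1td1 and Trim71, where 17.8% of all genes were. The count was 5 of 12 against EP1, where 22.4% of all genes were higher. Against RPG3, 17 of 18 were lower, with a median log2 ratio of -3.41, where 1798 of 10488 genes (17.1%) were called lower and 3893 (37.1%) higher.

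Tdgf1, a co-receptor of Nodal, was at 26.6 in EP2, against 0, 4.24 and 10.5 in the lowest, median and highest SSC library and 1.44 and 2.41 in EP1. L1td1, an RNA-binding protein of pluripotent cells, was at 16.5 against 0 to 6.69 in SSCs, and Rhox5, an X-linked homeobox gene, at 52.7 against 0 to 21.9. All 3 were above each SSC and EP1 library, and each was detected widely: Tdgf1 in 91.8% of thinned EP2 cells, 14.7% of EP1 cells and 41.0% of SSCs.

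The same library held RPG2 and RPG3 cells rich in most of these transcripts. Relative to its RPG2 cells, EP2 had less than 10% of the level for 8 of the 18 core pluripotency genes, from 1.88% for Gdf3, a TGF-beta family ligand, through 3.89% for Nanog, 4.22% for L1td1 and 5.64% for Pou5f1 to 8.65% for Utf1. The other 10 ran from 15.2% for Dppa5a through 22.2% for Sox2 and 36.8% for Sall4 to 76.7% for Lin28a and 154% for Trim71, and 7 of these 10 lay inside the SSC range in EP2. Outside the core list the share was 4.80% for Esrrb, 3.35% for Dppa2 and 9.73% for Rhox5. The 2 EP1 cells and the SSC2 cell of the library also held transcripts of Rhox5, Tdgf1, L1td1 and Nanog: Rhox5 was at 45.8 in the EP1 and 53.5 in the SSC2 cell, Tdgf1 at 19.2 and 11.9, L1td1 at 16.3 and 5.95 and Nanog at 8.87 and 11.9. The SSC2 values of Tdgf1, L1td1 and Nanog rested on 1 or 2 UMIs. The part of free RNA of the library in these low levels was not tested. Trim71, a stem cell RNA-binding protein, was at 273 in EP2 against 87.7 to 140 in SSCs, 120 and 159 in EP1 and 157 to 207 in RPG3.

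The list with the highest median ratio to SSCs, among those with 8 or more members tested, was that of ERK feedback and GDNF or FGF response genes. Of 19 tested, 12 were higher and none lower against SSC1 to SSC4 (17.8% and 3.53% of all genes), with a median log2 ratio of 1.51, and against EP1 10 were higher and 2 lower (22.4% and 9.89% of all genes) with a median of 0.79. The feedback inhibitor Spry4 was at 73.9 in EP2, against 2.46, 11.5 and 28.1 in the lowest, median and highest SSC library and 31.1 and 31.7 in EP1. It was 5.21-fold above the SSC mean and above every SSC and EP1 library. Spred1, another inhibitor of the pathway, was at 141 against 17.1, 22.9 and 115 in SSCs and 84.9 and 103 in EP1, where it was not called.

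Among the targets, Etv5, the ETS factor induced by GDNF and FGF (chr16:22381309-22439719), was at 177 in EP2 against 12.8, 47.3 and 76.8 in SSCs and 112 and 120 in EP1. It was 3.63-fold above the SSC mean, and 1.53-fold above the EP1 mean, short of the call. Myc, the growth-promoting factor, was at 30.1 against 0.403, 2.96 and 6.68 in SSCs and 13.3 and 20.9 in EP1, or 9.14-fold above the SSC mean. The median EP2 cell had 5.17 CPM of Myc, with an upper quartile of 13.1 and a highest of 438, so a few cells carried much of the level. RPG3 cells of B2 had more of both, with Etv5 at 198 to 279 and Myc at 49.1 to 91.0. Dusp4, an ERK phosphatase, was at 11.1 against 0 to 5.98. Fgfr1, a receptor of the pathway, was at 191 against 58.0 to 79.2 in SSCs and 96.8 and 98.2 in EP1. EP2 thus had more transcript than SSCs of a receptor, of targets and of inhibitors of the pathway. Other cells of the library were also high. The list summed to 1570 CPM in EP2, 1856 in the 2 EP1 cells and 1297 in the SSC2 cell of the library, against 365.5 to 874.9 in 6 SSC libraries, 1593 in the shallow day 16 replicate 6 and 1057 and 1114 in EP1. Etv5 was at 191 in these EP1 cells and 190 in the SSC2 cell and Spred1 at 279 and 155, whereas Spry4 was at 176 in the EP1 cells with no UMI in the SSC2 cell. The part of the library in the high levels of the list was not tested.

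Factors of undifferentiated spermatogonia followed the same direction, with 10 of 25 higher and none lower than in SSC1 to SSC4 (median log2 ratio 0.59), where 17.8% of all genes were higher and 3.53% lower. Against EP1, 6 of 26 were higher and 1 lower, with a median log2 ratio of 0.13, where 22.4% and 9.89% of all genes were. Etv5, Egr2 and Egr4 belonged both to this list and to that of ERK response genes. Bcl6b, a repressor that acts downstream of GDNF (chr11:70224128-70229798), was at 201 in EP2 against 22.4 and 37.7 in EP1. In SSCs it ranged from 9.53 to 45.8 in 6 libraries and reached 252 in the shallow day 16 replicate 6, so it was not called, and it was detected in 98.6% of thinned EP2 cells against 53.1% of SSCs. It was also high in the EP1 cells of the library of EP2, at 163, and in its SSC2 cell, at 143, so the gap to EP1 was not seen within the library. Id4, a marker of the SSC state, was at 81.8 against 5.65, 13 and 41.6 in the lowest, median and highest SSC library and 29.2 and 43.4 in EP1. Pou3f1, a POU factor under GDNF control, was at 285 against 13 to 163 in SSCs and 54.0 and 90.5 in EP1. In the EP1 and SSC2 cells of the library, Id4 was at 7.39 and 184 and Pou3f1 at 299 and 29.8.

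Lhx1, a LIM homeobox factor of the same group, was at 118 in EP2 against 4.62 to 79.8 in SSCs, but at 122 and 136 in EP1, so EP1 had it at the same height. Gfra1, the GDNF co-receptor, was at 37.5, just under the highest SSC library at 37.9, and at 32.2 and 38.0 in EP1. Of 6 mesendoderm and primitive streak genes tested, 4 were higher than in SSCs with a median log2 ratio of 1.42 (17.8% of all genes), and 1 was higher than in EP1 with a median of -0.04 (22.4% of all genes). Brachyury (T), the primitive streak T-box factor, was at 47.1 in EP2 against 0 to 15 in SSCs and 36.3 and 55.0 in EP1, and Foxa2, an endoderm factor, at 92.4 against 0 to 74.4 in SSCs and 55.8 and 67.0 in EP1. The level of T in EP2 also rested on a minority of cells, with 5.67 CPM in the median EP2 cell and 414 in the highest, against medians of 17.02 and 37.04 in the cells of the EP1 libraries.

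Other signalling lists were called in part. Of 10 BMP and Id genes, 6 were higher and 1 lower than in SSCs, with a median log2 ratio of 1.02, among them Smad7, an inhibitor of TGF-beta and BMP signalling, at 39.7 against 1.91 to 23.3. Id1, a BMP target, went the other way and was at 15.5 against 16.6 to 92.2 in SSCs. Of 10 Nodal pathway genes 4 were higher, and of 11 LIF and STAT3 genes 5 were higher and 1 lower. Over all genes 17.8% were higher and 3.53% lower in this comparison with SSCs. Against EP1, 4 of 10 BMP and Id genes were higher and 3 lower, Id1, Id3 and Bmp7, with a median log2 ratio of 0.38. Of 10 Nodal pathway genes 5 were higher there, and of 11 LIF and STAT3 genes 4, with none lower. Over all genes 22.4% were higher and 9.89% lower than in EP1.

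**Figure D2:**
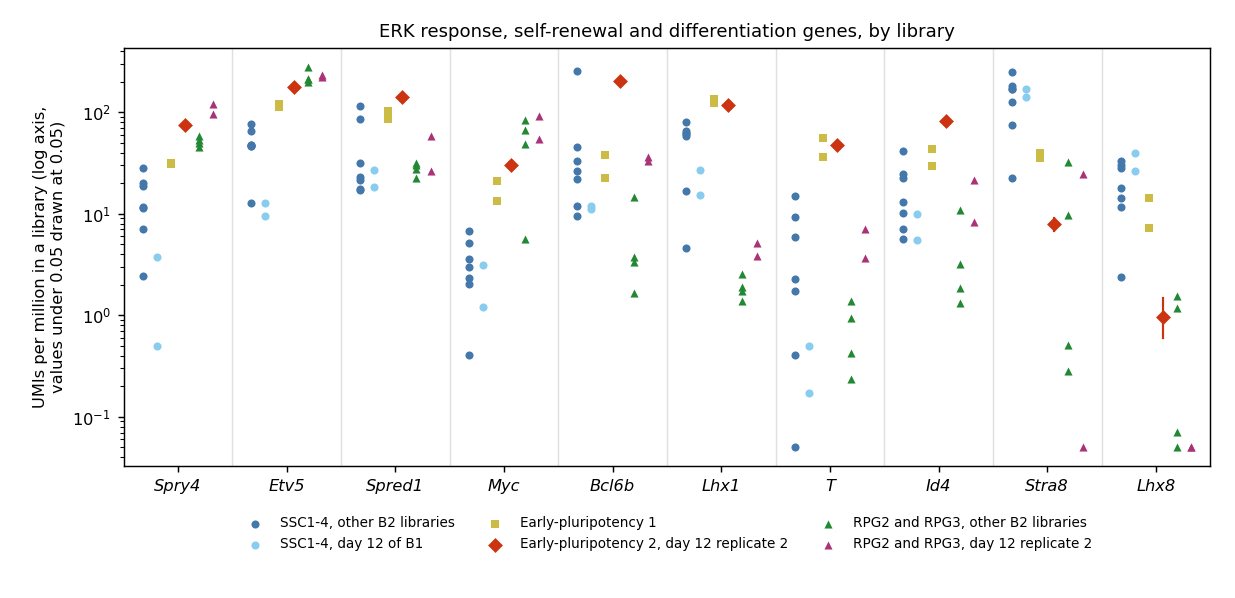
Levels of 10 genes of ERK response, self-renewal and differentiation, 1 point per library and class, in CPM on a log axis, with values under 0.05 drawn at 0.05. EP2 is above all SSC libraries of B2 for Spry4, Etv5, Spred1, Myc, Lhx1, T and Id4, is exceeded in Bcl6b by 1 shallow SSC library, and is lowest for Stra8 and Lhx8 among SSC and EP1 libraries.

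Genes of spermatogonial differentiation were lower than in SSCs or level with them. Of 14 tested against SSC1 to SSC4, none was higher and 4 were lower (17.8% and 3.53% of all genes), with a median log2 ratio of -0.47. Against EP1, 1 of 14, Upp1, was higher and 5 were lower (22.4% and 9.89% of all genes), with a median of -0.14. Stra8, the retinoic acid target that opens differentiation and meiosis (chr6:34920163-34939344), was at 7.84 in EP2 (6.71 to 9.10), against 22.5, 167 and 249 in the lowest, median and highest SSC library and 35.5 and 39.1 in EP1. It was 18-fold below the SSC mean and 4.76-fold below the EP1 mean, and was detected in 8.22% of thinned EP2 cells, 68.1% of EP1 cells and 85.8% of SSCs. The 2 EP1 cells of the library of EP2 had no Stra8 UMI, which allows up to 4.43 CPM, and its SSC2 cell had 47.6 from 8 UMIs, so the gap to EP1 was not seen within the library either.

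Sohlh1, a helix-loop-helix factor of differentiating spermatogonia, was at 77.0 against 91.3 to 382 in SSCs, but at 54.4 and 56.7 in EP1, so EP2 lay between. Crabp1, a retinoic acid binding protein, was at 70.7 against 186 to 368 in SSCs and 166 and 176 in EP1, and in the library of EP2 at 4.43 in the EP1 cells, from 3 UMIs, and 274 in the SSC2 cell. Lhx8, a LIM homeobox factor of germ cells, was at 0.957 against 2.37, 18.1 and 33.3 in SSCs and 7.29 and 14.3 in EP1, and had no UMI in the EP1 and SSC2 cells of the library. At or near 0 in EP2 were Ascl2, a helix-loop-helix factor of trophoblast and stem cells, with 2 UMIs in all EP2 cells, Prok2, a secreted prokineticin, with 0, and Sertad4 at 0.319, against 3.56 to 48.5, 1.19 to 41.0 and 1.19 to 31.9 in SSCs. These genes were below every SSC library, including the shallow one.

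The genes with the largest ratios to SSCs were not stem cell factors. Pilra, an immune receptor gene, was at 10.6 against 0 to 0.562 in SSCs, a 68.3-fold ratio of low levels, Prr7 at 13.8 against 0 to 2.88 and Camk2n2, an inhibitor of CaM kinase II, at 11.4 against 0 to 1.88. A few cells carried the levels of Prr7 and Camk2n2, which were at 0 in the median EP2 cell and at 163 and 131 in the highest. Rtp4, a chaperone of receptors that interferon induces (chr16:23520291-23614222), had the largest ratio at a high level. It was at 165 in EP2 against 0, 4.17 and 9.13 in the lowest, median and highest SSC library and 0.763 and 7.79 in EP1, or 37.2-fold above the SSC mean, and was detected in 95.9% of thinned EP2 cells, 5.17% of EP1 cells and 10.1% of SSCs.

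Interferon-stimulated genes form a group that cells switch on together after interferon signalling, through a shared sequence element near the start of many of them. A list of 44 was written after the values of some of them had been seen, so its count is a description. Of 34 tested against SSC1 to SSC4, 17 were higher and 1 lower, with a median log2 ratio of 0.89 (17.8% and 3.53% of all genes), and of 33 against EP1, 26 were higher and 2 lower with a median of 1.75 (22.4% and 9.89%). Letters like those of that element are printed in 30-base windows of the promoters (RefSeq, GRCm38.p6), on the strand of the gene and with the match in capitals, for 5 of the members called higher than in SSCs that held them.
Isg15, chr4:156200871-156200900, minus strand: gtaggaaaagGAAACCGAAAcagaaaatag
Oas1a, chr5:120907526-120907555, minus strand: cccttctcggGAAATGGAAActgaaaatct
Rsad2, chr12:26456553-26456582, minus strand: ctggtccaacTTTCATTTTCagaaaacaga
Gbp7, chr3:142530273-142530302, plus strand: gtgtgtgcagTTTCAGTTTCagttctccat
Ifit3, chr19:34583363-34583392, plus strand: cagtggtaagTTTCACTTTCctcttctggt
The letters searched were GAAANNGAAA on both strands in the 250 bases before the start, and the capitals mark 1 match for each gene, which in Rsad2, Gbp7 and Ifit3 is the reverse complement. They were found in 13 of the 33 list members that matched a promoter by symbol (39.4%), against 936 of all 27025 genes with a promoter (3.46%). Of the 17 members called higher, 13 matched a promoter and 7 of these held the letters, and of the other members 20 matched and 6 held them. A match is a description of these letters and not a measured site.

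Isg15, a ubiquitin-like protein, was at 84.2 in EP2 against 1.19, 14.9 and 32.3 in the lowest, median and highest SSC library and 5.60 and 8.34 in EP1. Rsad2, an antiviral enzyme, was at 22.7 against 0 to 5.55, Oas1a, which senses double-stranded RNA, at 16.5 against 0 to 4.88, Gbp7, a guanylate-binding protein, at 29.3 against 0 to 14.4, and Ifit3 at 10.8 against 0 to 3.47. Each was above all SSC libraries. Irf1, which interferon gamma induces, was the gene called lower, at 105 against 129 to 260.

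Part of this group was also high in other cells of the same library. Rtp4 was at 37.6 in its RPG2 cells and 34.4 in its RPG3 cells against 0 to 0.846 in RPG3 cells elsewhere, at 34 in its 2 EP1 cells and at 119 in its SSC2 cell. Isg15 was at 62.0 in the RPG2 cells, 33.1 in the RPG3 cells and 196 in the SSC2 cell. Of 25 list members tested between the RPG3 cells of the library and RPG3 cells elsewhere, 16 were higher and 4 lower. Over all 9376 genes 26.3% were higher and 21.8% lower. RPG3 cells elsewhere were those of day 18 replicates 3 and 5 in B2, so the day differed as well as the library. SSCs of day 12 in B1 had Isg15 at 39.7 and 45.9, above the SSC libraries of B2 and below EP2. Summed over the list, they had 2126 and 2153 CPM, near the 2346 of EP2, against 1257 to 1776 in the SSC libraries of B2. Per cell the medians of the sum were 1983 in EP2 and 2002 in these SSCs of B1, with quartiles of 1486 and 3102 and of 1663 and 2725, so the quartiles overlapped. Rtp4 was thus above its level elsewhere in each class of the library, and highest in EP2 and the SSC2 cell. Within EP2 the median cell had 107 CPM of Rtp4 with quartiles of 29.7 and 243. Other members were carried by fewer cells. The median EP2 cell had 14.9 CPM of Isg15 with an upper quartile of 141, and 4.68 of Usp18, a protease that removes ISG15, and Ifit3 had an upper quartile of 0 and a highest cell of 230.

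A further 3 genes, chosen after their values were seen, were high in each of these classes of the library. Raly, an RNA-binding protein, was at 206 in EP2 against 14.8 to 55.4 in SSCs, and at 282 in the RPG2 and 209 in the RPG3 cells of the library against 29.2 to 50.6 in RPG3 cells elsewhere. Npm3, a nucleolar protein, was at 120 against 2.37 to 13.5 in SSCs, and at 179 and 109 in those RPG cells against 18 to 29.3. Apex1, a DNA repair enzyme, was at 25.1 against 1.07 to 5.93, and at 39.9 and 36.3 against 2.75 to 6.87. Across genes, 1334 of those higher than in SSCs could also be read in the RPG3 cells, and 621 of them (46.6%) were higher in the RPG3 cells of the library than elsewhere, against 23.8% of all 8390 genes. These 621 were 31% of the 2001 genes among the 8390 that were called higher in the RPG3 cells. Of 284 genes lower than in SSCs, 115 (40.5%) were also lower in the RPG3 cells of the library than elsewhere, against 20.7% of all genes. These 115 were 6.63% of the 1734 genes among the 8390 that were called lower there. Both shares rest on 7 RPG3 cells of the library, with 4990 to 448871 UMIs per cell. The RPG3 cells elsewhere were 58 and 65 from day 18 replicates 3 and 5 of B2, and those of B1 were not used. The part of the day in these shares was not tested. When the 621 were left out, 1181 genes remained higher than in SSCs. Spry4 was among the genes higher in the RPG3 cells of the library, at 121 against 45.3 to 49.6.

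**Figure D3:**
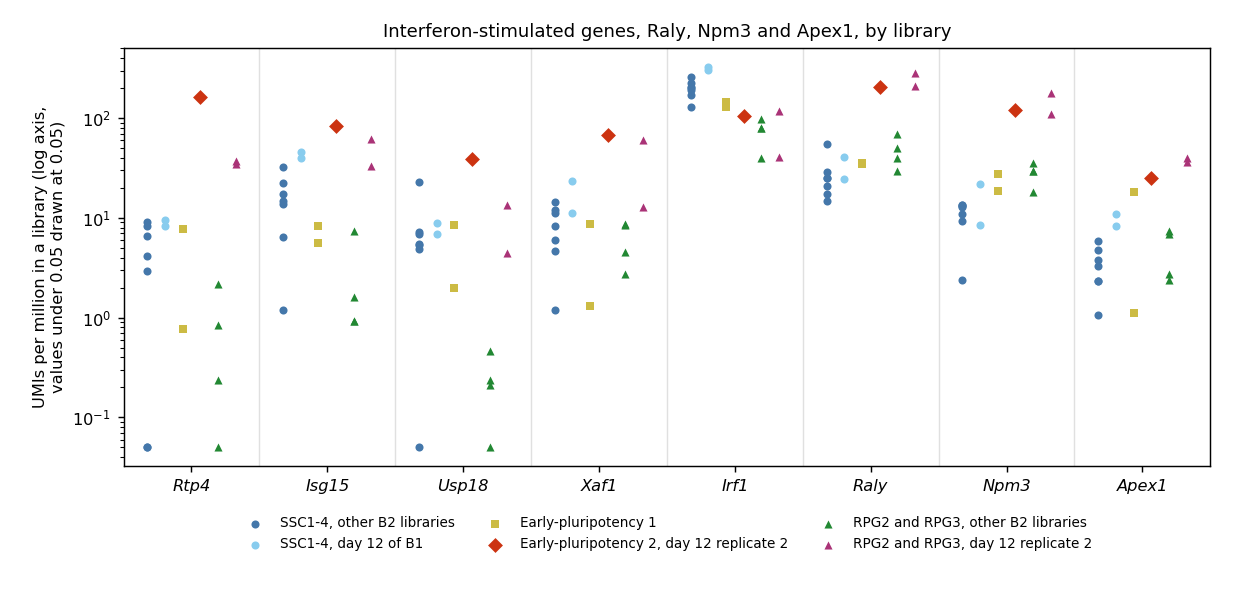
Levels of 5 interferon-related genes and of Raly, Npm3 and Apex1, 1 point per library and class, in CPM on a log axis, with values under 0.05 drawn at 0.05. EP2 and the RPG cells of day 12 replicate 2 lie together above all other classes for Raly, Npm3 and Apex1, while for Rtp4, Usp18 and Xaf1 the EP2 point is the highest and the RPG cells of the library differ in how far they follow.

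Among the fixed lists, that of G2 and mitosis genes was furthest below EP1. Of 23 G2 and mitosis genes tested, 17 were lower in EP2 than in EP1 and none higher, with a median log2 ratio of -0.94, against 9.89% of all genes lower. Plk1, the mitotic kinase (chr7:122159439-122169873), was at 49.9 in EP2 and at 193 and 207 in EP1, Aurka, a spindle pole kinase, at 66.1 against 189 and 227, Aurkb, its partner at the centromere, at 61.3 against 187 and 189, Cdk1 at 118 against 287 and 303, and Birc5, a subunit of the Aurora B complex, at 149 against 292 and 347. All 5 were below both EP1 libraries. The 2 EP1 cells of the library of EP2 were also below them, with Plk1 at 54.7, Aurka at 75.4, Aurkb at 72.4, Cdk1 at 207 and Birc5 at 94.6. The S phase list did not follow, with 2 of 20 lower and none higher.

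The list summed to 3395 CPM in EP2, 6592 and 6324 in EP1, and 4190 to 6076 in the 7 SSC libraries. Against SSC1 to SSC4, 3 of 22 members were lower, where 3.53% of all genes were. SSCs of day 12 in B1 had 3854 and 3461, close to EP2, and the median log2 ratio of the list against them was -0.03. The RPG2 and RPG3 cells of the EP2 library had 6004 and 5609, and its 2 EP1 cells and its SSC2 cell had 5109 and 4653, between EP2 and the EP1 libraries. Per cell, the sum had a median of 2917 in EP2, with a range of 929 to 8663, and of 6754 and 6347 in the EP1 libraries.

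**Figure D4:**
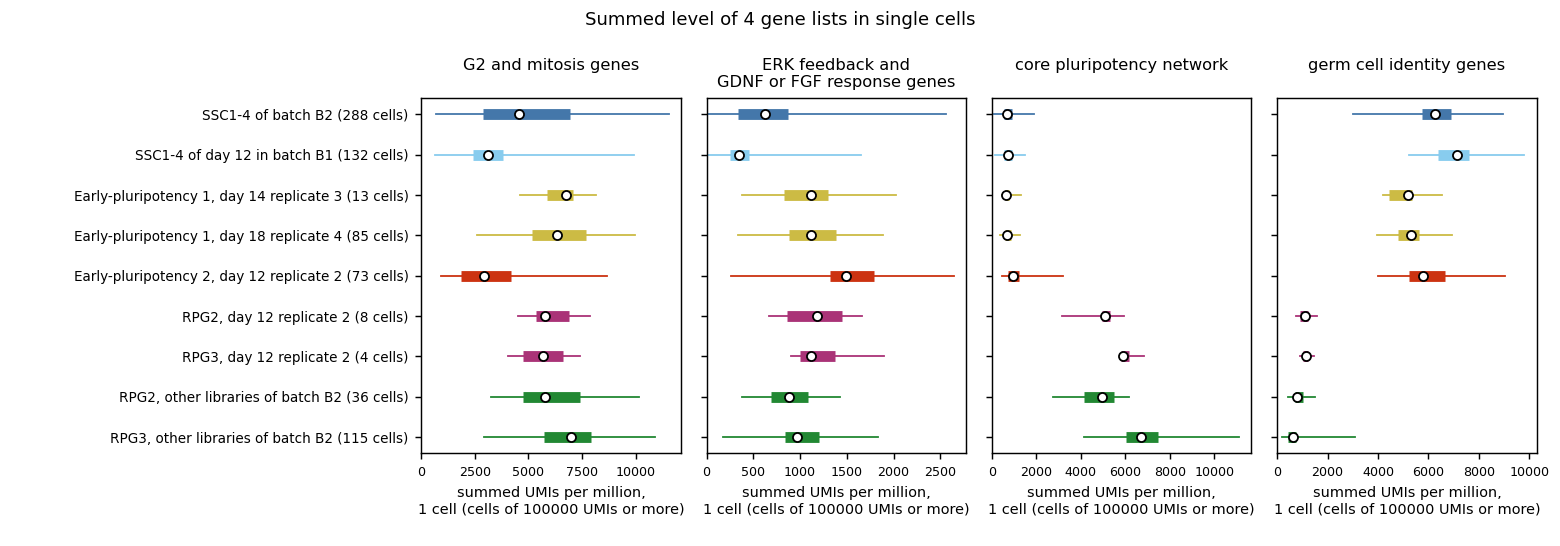
Summed level of 4 gene lists in single cells of 100000 UMIs or more, in CPM: the circle is the median cell, the thick bar the quartiles and the thin line the range. EP2 has the lowest median of G2 and mitosis genes (2917), the highest of ERK response genes (1490), and lies with SSCs and EP1, away from the RPG cells, for pluripotency and germ cell identity genes.

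Other genes also differed between EP2 and the EP1 libraries. Krt19, a simple epithelial keratin, was at 2.96 in EP2 against 62.1 and 66.9 in EP1 and 2.31 to 43.4 in SSCs. The EP1 and SSC2 cells of the library of EP2 had no Krt19 UMI, so the low level was shared within the library. Lhx5 had no UMI in EP2 against 23.5 and 3.82 in EP1. Camk2n2 and Prr7 were nearly silent in EP1 as in SSCs, at 0 to 0.17 and 0 to 0.382. Fam46a, at 25.6 against 0 and 1.57, and Ly6c1, a GPI-anchored surface antigen, at 32.1 against 0.371 and 2.54, were also among the genes furthest above EP1. Klf4, a naive pluripotency factor, was at 46.6 against a mean of 12.8 in EP1 and 4.62 to 36 in SSCs.

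Of the metabolic lists, those of serine, glycine and one carbon metabolism and of cholesterol synthesis held genes lower in EP2 than in EP1, where 9.89% of all genes were lower and 22.4% higher. Of 15 genes of serine, glycine and one carbon metabolism, 6 were lower and 1 higher, with a median log2 ratio of -0.46. Gldc, a subunit of the glycine cleavage system, was at 7.66 against 32.6 and 21.2, Phgdh, the first enzyme of serine synthesis, at 115 against 230 and 190, and Shmt2, the mitochondrial serine hydroxymethyltransferase, at 145 against 329 and 289. Of 19 cholesterol synthesis genes, 7 were lower and 2 higher. The enzymes Sqle and Dhcr7 were lower, at 105 against 201 and 176 and at 93.1 against 182 and 139, while Srebf2, a transcription factor that regulates the pathway, was higher, at 202 against 83.6 and 92.6. Against EP1, 2 of 16 glycolytic enzymes were lower and 1 higher, and none of 25 oxidative phosphorylation subunits was called. Glycolytic enzymes and oxidative phosphorylation subunits gave no call against SSCs in 16 and 25 genes tested, where 17.8% of all genes were higher and 3.53% lower, and Ldha was at 272 inside an SSC range of 178 to 450.

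**Figure D5:**
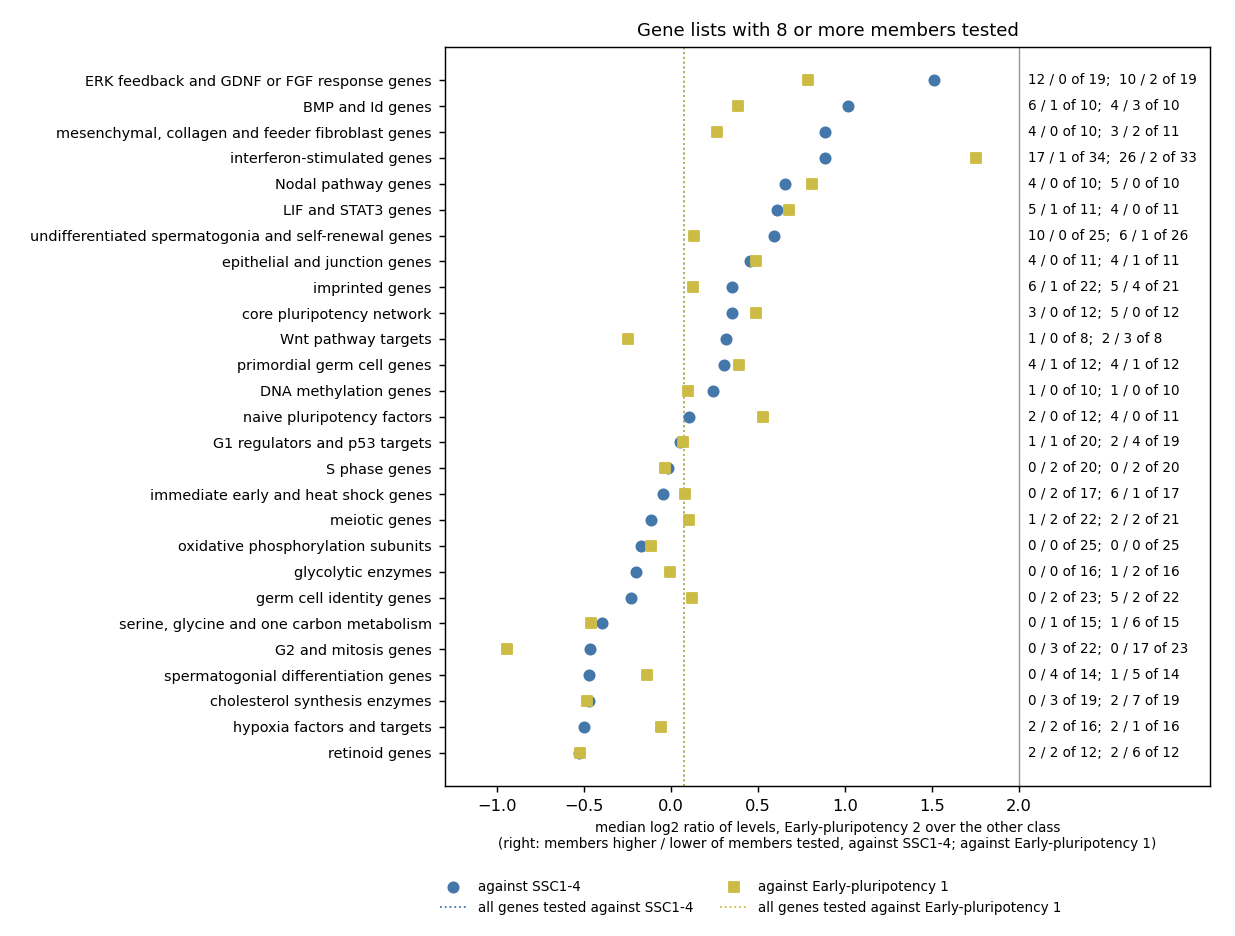
Median log2 ratio of EP2 over SSC1 to SSC4 (circles) and over EP1 (squares) for each gene list with 8 or more members tested, with the median over all genes as dotted lines and the numbers called at the right. ERK response genes are furthest above SSCs (1.51) and G2 and mitosis genes furthest below EP1 (-0.94). Interferon-stimulated genes are furthest above EP1 (1.75), but that list was written after values of its members had been seen, so its rank is no result.

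Against RPG3, 3893 of 10488 genes (37.1%) were higher in EP2 and 1798 (17.1%) lower, with germ line genes among the higher and pluripotency genes among the lower. Other lists differed too, with 24 of 33 interferon-stimulated genes higher and 1 lower, and 13 of 22 G2 and mitosis genes lower and none higher. All 21 germ cell identity genes tested were higher in EP2, with a median log2 ratio of 3.14, as were 15 of 19 meiotic genes and 18 of 26 genes of undifferentiated spermatogonia, against 37.1% of all genes. Of 17 glycolytic genes 13 were lower and 2 higher, where 17.1% of all genes were lower. Lpar3, a receptor of lysophosphatidic acid, was at 42.0 in EP2 against 0.229 to 0.564 in RPG3 elsewhere, whereas Eras, the RAS of embryonic stem cells, was at 0.0456, with 1 UMI, against 32.4 to 35.5, and Fgf4, a growth factor of the early embryo, at 3.65 against 109 to 150. Scaling changed this comparison: 68.4% of the calls were higher in EP2 with total UMIs and 49.3% with median-of-ratios scaling, which moved the all-gene median from 0.31 to -0.09.

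Markers of other cell types were low in EP2, but those called were all higher than in SSCs, and each of the 3 lists summed to more than in any SSC library, where 17.8% of all genes were higher. Of 30 mesenchymal and feeder fibroblast genes, 10 could be tested and 4 were higher, and the list summed to 465 in EP2 against 120.1 to 345.4 in SSCs and 370.4 and 379.9 in EP1. The 4 were Col5a1, Cdh2, Fn1 and Zeb1. Col1a1 was at 52.4, inside the SSC range of 2.37 to 54.9, and Col3a1 had no UMI in any EP2 cell. Against EP1, 3 of 11 were higher, Col1a1, Zeb1 and Col5a1, and 2 lower, Snai1 and Twist1 (22.4% and 9.89% of all genes). Of 15 Sertoli, Leydig and peritubular genes, 3 could be tested and 2 were higher, Sox9 at 25.8 (4.01 in the median cell) against 0 to 17.5 and Clu at 21.4 against 0 to 9.79, and the list summed to 59.0 against 2.37 to 41.3. Of 12 macrophage, blood and endothelial genes, 2 could be tested and both were higher, Cd68 at 45.3 against 3.56 to 28.8 and the VEGF receptor Kdr at 11 (0 in the median cell) against 0 to 3.58, and the list summed to 66.4 against 5.93 to 41.1. Against EP1, Clu, Cd68 and Kdr were called higher and Sox9 was not, where 22.4% of all genes were higher. The part of these other cell types in the other results was not tested.

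The single EP2 cell of day 14 replicate 6 had 132554 UMIs and 7196 genes. Its Etv5 was at 445 CPM, Bcl6b at 143 and Spry4 at 128, with Etv5 and Spry4 above and Bcl6b below the level of the larger library, and Sox2 at 83.0 rested on 11 UMIs. Rtp4, Npm3, Eomes and Id4 had no UMI, Raly was at 22.6 with 3 UMIs and Isg15 at 7.54 with 1 UMI. Stra8 was at 45.3, above the mean of the other EP2 cells. With 1 cell, a gene at 0 may be one that the depth did not reach.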

How the data were processed

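The authors counted UMIs per gene in single cells (UMI-tools, STAR 2.7.2b on mm10, featureCounts 2.0.0, per the study's methods) and deposited a table of raw UMI counts together with a cell annotation holding cluster, day and batch. Here the counts of 4339 annotated cells and 24615 genes from 46 libraries were summed per library and class, over libraries with at least 5 cells, and divided by total UMIs. EP2 had only 1 such library, and the design set no test for a class without a second library. The edgeR and DESeq2 tests were therefore not run and no p-value is given. Ratios were taken on CPM, and a gene with 3 UMIs or fewer was set to a floor of 3 counts. A call needed a natural log ratio of at least 0.5 (1.65-fold), no overlap with the range of the other class's libraries and 10 CPM in the higher class. Counting intervals are exact 95% Poisson or binomial intervals. Shares of cells were computed after thinning each cell to 100000 UMIs, which left out shallower cells, 3 of them in EP2. TMM factors came from edgeR 4.0.16 in R 4.3.3. No doublets were called here. Named genes were the marker, pluripotency and germ line genes, the 12 furthest genes per direction and comparison outside gene models named Gm or Rik, and up to 6 called members per list. Coordinates are those of GENCODE vM21, which matched 23552 gene names. The script that computes ratios and calls was tested on simulated data. The members and the 34 gene lists were chosen with earlier results of these data known, and the interferon list of 44 genes was added after values had been seen.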

Additional observations from a re-analysis of the deposited data

Results flagged for a closer look

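Of 255 genes examined in the 7 SSC libraries, 48 had 1 library whose gap to its nearest neighbour was large for the group's range. Chance gives about 1 in 20. Of these flags, 35 were in day 16 replicate 6 and 7 in day 18 replicate 4. Among 74 examined genes that this text names, 7 had such a library. In 5 of the 7 that library was day 16 replicate 6, the shallow one with 8 cells. It was highest for Bcl6b (252 CPM), Ddx4 (709) and Srebf2 (404), and lowest for Birc5 (111) and Shmt2 (69.3). The 6 SSCs of day 18 replicate 4 were highest for Esrrb (17.8) and the SSCs of day 14 replicate 5 for Nanog (24.8). Apart from the named library, EP2 was outside the SSC range for 6 of these genes, all but Ddx4: it was at 201 for Bcl6b against 45.8 or less in the other 6, at 12.6 for Esrrb against 4.64 or less, at 9.16 for Nanog against 6.79 or less, at 202 for Srebf2 against 81.9 or less, at 149 for Birc5 against 221 or more and at 145 for Shmt2 against 191 or more.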

How the results depend on the processing

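No paired analysis was possible because EP2 came from 1 library and no test was run, and the planned DESeq2, day covariate and replicate block fits were not run for the same reason. The number of genes higher than in SSC1 to SSC4 (1802) was 3202 without the filter on low levels, 723 at a natural log ratio of 1, 980 with SSCs of all batches, 2772 with SSCs of day 12 in B1 (chosen after seeing the data) and 1181 without the genes shared with the RPG3 cells. The number lower (358) was 557 with median-of-ratios scaling, 933 with at least 10 cells per library, 1021 with sums per batch and day, 927 in thinned cells, 110 at a natural log ratio of 1, 131 with SSCs of all batches and 1267 with SSCs of day 12 in B1. Leaving out 1 SSC library gave 1826 to 2258 higher and 365 to 649 lower. Against EP1, the number higher (2261) was 4832 without the filter and 633 at a natural log ratio of 1, and the number lower (998) was 2252 without the filter, 381 with at least 3 cells per library and 247 at a natural log ratio of 1. Leaving out 1 EP1 library gave 2411 to 2415 higher and 860 to 1540 lower. Against RPG3, the number higher (3893) was 6893 without the filter and 2386 at a natural log ratio of 1, and the number lower (1798) was 2780 with median-of-ratios scaling, 2843 with TMM scaling (chosen after seeing the data) and 990 at a natural log ratio of 1. Leaving out 1 RPG3 library gave 3841 to 4256 higher and 1883 to 1998 lower. The filter, the threshold and the number of libraries bear on the counts by their construction, and for the scalings, the thinning and the other batches the cause was not tested. The share of EP2 cells was 8.24% of the cells of B2 in place of 1.77% of all. The share of EP2 cells with a UMI was 60.5% without thinning and 15.1% at 2 UMIs or more for Eomes, 97.4% and 58.9% for Sox2, and 72.4% and 17.8% for Dppa2. For the named genes, 178 gene ratios were recomputed in 2596 alternative values, of which 2282 stayed within the spread between libraries, 314 moved further and 0 turned in direction. Of the 19 ERK response genes, 10 were higher than in SSCs with median-of-ratios scaling (1413 of all genes), 10 of 18 with TMM scaling (1477), 8 with SSCs of all batches (980) and 7 without the genes shared with the RPG3 cells (1181). The SSC libraries with 6 and 8 cells rest on 843460 and 433094 UMIs, so low genes there are known only coarsely.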

Other observations

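Neural and imprinted genes held further members that were higher in EP2 than in SSC1 to SSC4, where 17.8% of all genes were higher and 3.53% lower. Of 6 neural genes tested, 4 were higher, among them Nefm, a neurofilament subunit also known from undifferentiated spermatogonia, at 323 against 17.9 to 203 CPM, and Zic1, a zinc finger factor, at 80.9 against 15.4 to 35.2. Of 22 imprinted genes, 6 were higher and 1 lower, to be read against those shares. H19, a maternally expressed non-coding RNA, was at 90.8 against 2.31 to 66.8, Grb10, an adaptor that restrains growth factor signalling, at 20.9 against 0.879 to 6.05, and Peg3, a paternally expressed zinc finger gene, at 43.9 against 5.93 to 20.8. Allelic origin was not measured.

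Further lists held called members, to be read against 17.8% of all genes higher and 3.53% lower than in SSC1 to SSC4. Of 20 G1 regulators and p53 targets, Bax, a promoter of apoptosis, was lower, at 252 against 369 to 656, and Bbc3, another one, higher, at 16 against 2.31 to 14.2. Of 16 hypoxia genes, 2 were lower, among them the glucose transporter Slc2a1 at 43.1 against 56.5 to 129, and 2 higher, among them the glucose transporter Slc2a3 at 79.9 against 36.2 to 67.1. Of 20 S phase genes 2 were lower and none higher, among them Ung, which removes uracil from DNA, at 122 against 230 to 385. Mael, a piRNA pathway protein, was at 373 against 446 to 573 and not called, and Sycp3, a protein of the meiotic chromosome axis, at 30.3 was inside the SSC range of 2.37 to 100.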
